A study of Drosophila melanogaster with 102 samples.

Results

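Oxidative phosphorylation is carried out by 5 protein complexes of the inner mitochondrial membrane, and most of their subunits are encoded in the nucleus. The genes described here are the 87 of 14312 genes in the tables whose FlyBase symbol starts with ND- (complex I), Sdh followed by A to D (complex II), UQCR- (complex III), COX followed by a digit (complex IV) or ATPsyn (complex V). They were split by name into 63 ubiquitous genes and 24 paralogs, whose symbols end in L with or without a digit. ND-MNLL ends in L but is the orthologue of a common subunit, and it was kept with the ubiquitous genes. Complexes I to V held 34, 4, 6, 8 and 11 ubiquitous genes and 6, 3, 3, 8 and 4 paralogs.

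Whole flies of the Drosophila melanogaster strain W1118 gave the RNA that was sequenced, and every group carries the white eye colour mutation of that strain. Mothers received a high fat diet (HFD), a high sugar diet (HSD) or a control diet (CD) for 7 days and were mated with males fed CD. All progeny ate CD and were kept at 25 °C in light/dark cycles, so HFD and HSD progeny are named here for the diet of the mother. The 15 libraries of mothers form 3 groups of 5, and the 87 libraries of progeny form 18 groups by maternal diet, sex and day (0, 10 or 50). A progeny group held 5 libraries, except HFD sons at day 50 (3), HSD sons at day 50 (6), HSD daughters at day 50 (4) and CD daughters at day 0 (4). The series asks how obesity of the mother bears on the lifespan and immunity of its offspring.

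Complexes I and II pass electrons from NADH and succinate to ubiquinone, complex III passes them on to cytochrome c, and complex IV hands them to oxygen. Complexes I, III and IV pump protons, and complex V, the ATP synthase, lets them flow back to make ATP. Insect flight muscle is among the tissues richest in these complexes. Drosophila also has a set of duplicated subunit genes transcribed mainly in the male germ line, where giant mitochondria run along the sperm tail.

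Library totals ran from 6332907 to 19469296 counts, with a median of 11713499. Levels are given as CPM, that is counts relative to a library total scaled by the trimmed mean of M values (TMM). The scaling for CPM was taken over all mothers or all progeny, while each fit computed its own. Fold changes therefore need not equal ratios of the CPM given. The test was edgeR's quasi-likelihood F test, run over all genes of a fit, and a gene passed at a Benjamini-Hochberg adjusted p below 0.05. Nothing in the labels says whether replicate libraries were grown separately, so p-values measure the spread between libraries, which may be technical. Differences between groups are log2 fold changes with their standard error (SE), also where given in parentheses after a gene. In whole flies, fewer cells of a type and less RNA per cell cannot be told apart.

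A few libraries stood apart. Library m8, labelled HFD son at day 0, held 3134 CPM of 9 summed ovary markers, against 51 to 186 CPM in sons other than m3 and m8, and only 4.22 CPM of all paralogs summed, against 1293 to 1326 CPM in the other 4 of its group. Of the CD sons at day 0, m3 held 473 CPM of the ovary markers, and m1, m3 and m4 held 220.2, 996 and 1146 CPM of 3 summed yolk protein genes, against 4.67 to 70.3 CPM in sons other than these and m8. Library f12, labelled HSD daughter at day 0, held 1741 CPM of 17 testis markers, against 113 to 232 CPM in all other libraries of mothers and daughters. Library m27, an HSD son at day 10, held 306 CPM of the testis markers, against 3475 to 4495 CPM in CD sons of that day. Where a count of calls or the direction of a list's median depends on one of these libraries, the value without it is given as well. Library m45, an HSD son at day 50, also stood apart and is described with its group.

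The genes of both classes differed in layout. Of the 24 paralogs, 8 (33.3%) had a single exon in their longest transcript, against 0 of the 63 ubiquitous genes and 17.3% of all annotated genes. On the X chromosome lay 1 paralog, SdhBL, and 12 ubiquitous genes, against 15.9% of all annotated genes. Paralogs lay next to the gene of the same name in 3 cases. COX5B lies at 2L:6557800-6559308 and COX5BL at 2L:6559431-6560133, both on the plus strand (annotation BDGP6.54). COX7A lies at 3R:8339944-8341043 on the minus strand and COX7AL at 3R:8343669-8344310 on the plus strand, and COX7C and COX7CL are neighbours on 2R. The labels do not state strandedness, and 35 of the 87 genes overlap another gene on the opposite strand and 12 overlap one on their own strand, so their counts carry that uncertainty.

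Per kilobase of the longest transcript, a pair of ATP synthase genes stood highest in CD progeny at day 10. In CD daughters at day 10, ATPsynC, which encodes the proton-carrying ring subunit, averaged 1952 CPM per kb, ATPsynbeta, the catalytic subunit, averaged 1679 CPM per kb, and COX5A, a subunit of cytochrome c oxidase, averaged 769 CPM per kb. In CD sons of the same day these 3 averaged 755, 774 and 705 CPM per kb. The other ATP synthase genes stood among those of the remaining complexes, from 677 CPM per kb for ATPsynF down to 93.5 CPM per kb for ATPsyndelta in CD daughters. ND-B8, an accessory subunit of complex I, was the lowest in CD daughters at 11.9 CPM per kb, and stood at 51.4 CPM per kb in CD sons. Its name put it with the ubiquitous genes, though its group means in mothers were only 0.36 to 0.74 CPM per kb. Its highest progeny group mean was 576 times its lowest, against a median of 4.62 for the 63 genes. Relative to group mates it was the lowest of the 63 in m27 (ratio 0.0452) and in m8 (0). The most abundant paralogs in CD sons at day 10 were COX4L, COX7AL and COX7AL2, with 200.3, 94.0 and 87.5 CPM per kb.

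**Figure D1:**
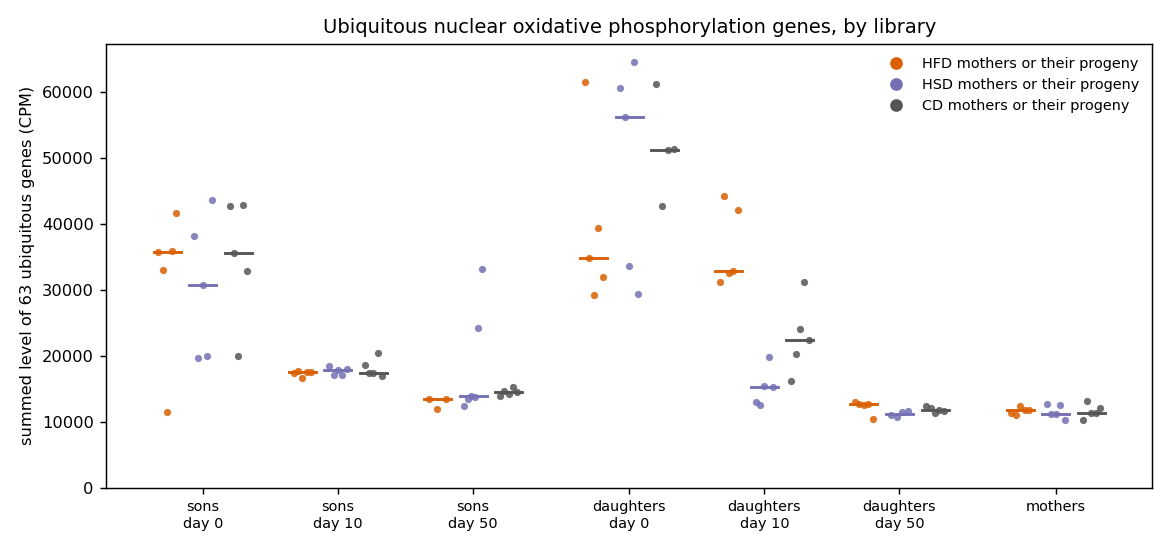
Summed level of the 63 ubiquitous genes (CPM, linear axis from 0) in each library of sons, daughters and mothers by day, with orange, purple and grey points for HFD, HSD and CD and a line at each group's median. In daughters at day 10 the HFD libraries (31172 to 44278 CPM) lie above the HSD libraries (12501 to 19825 CPM), and by day 50 the group means of daughters lie between 11203 and 12252 CPM.

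Daughters at day 10 showed the widest separation by maternal diet. All 63 ubiquitous genes were lower in HSD than in HFD daughters, against 34.4% of the genes tested that passed in that direction. The median log2 fold change of the list was −1.38, and that of all genes tested was −0.08. Summed over the 63 genes, HSD daughters held 12934, 12501, 15407, 19825 and 15210 CPM, HFD daughters held 31172, 44278, 32550, 32798 and 42182 CPM, and CD daughters held 16115, 20299, 24120, 31121 and 22399 CPM. Every HSD library lay below every HFD library, and the CD libraries lay below every HFD library and overlapped the HSD libraries. For 61 of the 63 genes the HSD and HFD libraries did not overlap, against 9.9% of all genes that were lower without overlap. The 2 others were ND-B8 and COX7A.

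The catalytic subunit of ATP synthase shows the pattern in a single gene. ATPsynbeta (FBgn0010217, chromosome 4, 1031484 to 1034917, plus strand) stood at 1862, 1894, 2138, 2754 and 2262 CPM in HSD daughters, at 4524, 4838, 5756, 5743 and 7608 CPM in HFD daughters and at 2295, 2987, 3654, 4874 and 3384 CPM in CD daughters. The highest HSD library reached well under the lowest HFD library, and the log2 fold change was −1.55 ± 0.22 (SE, edgeR adjusted p = 0.00106). ATPsynC, on 3R at 31216145 to 31219630, stood at 1897, 1800, 1837, 2784 and 2332 CPM in HSD daughters and at 5178, 6760, 4735, 4615 and 6338 CPM in HFD daughters, again without overlap (−1.54 ± 0.22, edgeR adjusted p = 0.00106). ATPsynO, a subunit of the stalk that joins the membrane part to the catalytic part, had the largest difference of complex V (−1.66 ± 0.22, edgeR adjusted p = 0.00106).

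In complex IV 1 gene stood apart from the others. COX4 (2L, 19958713 to 19960065) stood at 385, 369.9, 489, 595 and 439 CPM in HSD daughters, against 823, 1341, 863, 909 and 1089 CPM in HFD daughters (−1.31 ± 0.21, edgeR adjusted p = 0.00108). COX5A (−1.38 ± 0.20) and COX5B (−1.57 ± 0.20) were lower as well. COX7A (FBgn0040529), a small subunit, stood at 133, 124, 121, 146 and 131 CPM in HSD daughters and at 144, 191, 128, 123 and 137 CPM in HFD daughters. These groups overlapped almost entirely, and COX7A had the smallest difference of all 63 genes (−0.31, edgeR adjusted p = 0.0405). On the scale of the CPM given the difference was smaller, with means of 211.1 CPM per kb in HSD and 232.7 CPM per kb in HFD daughters.

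In complex III, UQCR-C1, a core subunit, stood at 463, 439, 559, 719 and 552 CPM in HSD daughters, against 1037, 1388, 1110, 1127 and 1508 CPM in HFD daughters (−1.34 ± 0.21, edgeR adjusted p = 0.00108). UQCR-14, an accessory subunit, was lower (−1.59 ± 0.26). In complex II, SdhA, the flavoprotein that oxidises succinate, stood at 285, 276, 418, 429.7 and 322 CPM in HSD daughters and at 501, 577, 796, 772 and 997 CPM in HFD daughters (−1.24 ± 0.23, edgeR adjusted p = 0.00196). SdhB, the iron-sulphur subunit (−1.36 ± 0.23), and SdhC, a membrane anchor (−1.48 ± 0.23), were lower. All libraries of HSD daughters lay below all of HFD daughters in these genes.

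In complex I, ND-75 (X, 8248651 to 8251687), the large iron-sulphur subunit of the matrix arm, stood at 283, 232, 348, 403 and 324 CPM in HSD daughters, against 585, 769.8, 590.4, 577 and 758 CPM in HFD daughters (−1.21 ± 0.20, edgeR adjusted p = 0.00145). Lower too were ND-51, which binds the flavin that accepts electrons from NADH (−1.25 ± 0.22), and ND-49 (−1.49 ± 0.23) and ND-30 (−1.27 ± 0.19), core subunits of the same arm. The accessory subunit ND-B18 had the smallest p of the complex (−1.38 ± 0.19, edgeR adjusted p = 0.00106). ND-B8 (FBgn0040705, 2L, 4454626 to 4455207, plus strand) had the largest difference of all 63 genes at −2.07 ± 0.44 (edgeR adjusted p = 0.0029). It was low in every library, with 2.28, 1.90, 5.77, 6.42 and 2.22 CPM in HSD daughters and 5.75, 11.3, 18.3, 19.9 and 14.4 CPM in HFD daughters, and 2 HSD libraries lay above the lowest HFD library. ND-B8 also overlaps Gs1l on the opposite strand.

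The complexes differed little in the size of this difference. Median log2 fold changes of HSD against HFD were −1.31, −1.32, −1.44, −1.45 and −1.49 for complexes I to V. Between 61 and 63 of the 63 genes passed under every alternative run, including the fit that left out libraries m8, f12, f21, f22, f26 and f27. No label sets f21, f22, f26 or f27 apart. Library f22, the highest HFD library in the summed ubiquitous genes, differed in tissue markers. It held 354 CPM of the ovary markers, against 1429 to 1707 CPM in the other HFD daughters of day 10. Of 6 summed larval fat body markers it held 770 CPM, against 10.3 to 108 CPM.

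Against CD, neither diet passed alone. Comparisons of HFD and of HSD daughters with CD share the same 5 CD libraries. For HFD against CD, 0 of 63 passed by edgeR (0.0483% of all genes passed), 62 had an unadjusted p below 0.05 (28.5% of all genes did), and DESeq2 called 60 (8.96% of all genes). All 63 were higher in direction, with a median of 0.73 (0.15 to 1.41), while the median of all genes was 0.05, and the edgeR adjusted p ran from 0.0825 to 0.366. Of the 63, 11 were above CD in every HFD library, against 2.02% of all genes. Without CD library f19, 60 genes passed, and without HFD library f21, 18 did. For HSD against CD, 0 of 63 passed by edgeR (0% of all genes), 58 had an unadjusted p below 0.05 (23.2% of all genes), and DESeq2 called 10 (2.33%). All 63 were lower in direction with a median of −0.63 (−0.83 to −0.16), the edgeR adjusted p ran from 0.206 to 0.362, and without HSD library f29, 54 passed. Complex medians ran from 0.72 to 0.79 for HFD against CD and from −0.73 to −0.57 for HSD against CD.

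**Figure D2:**
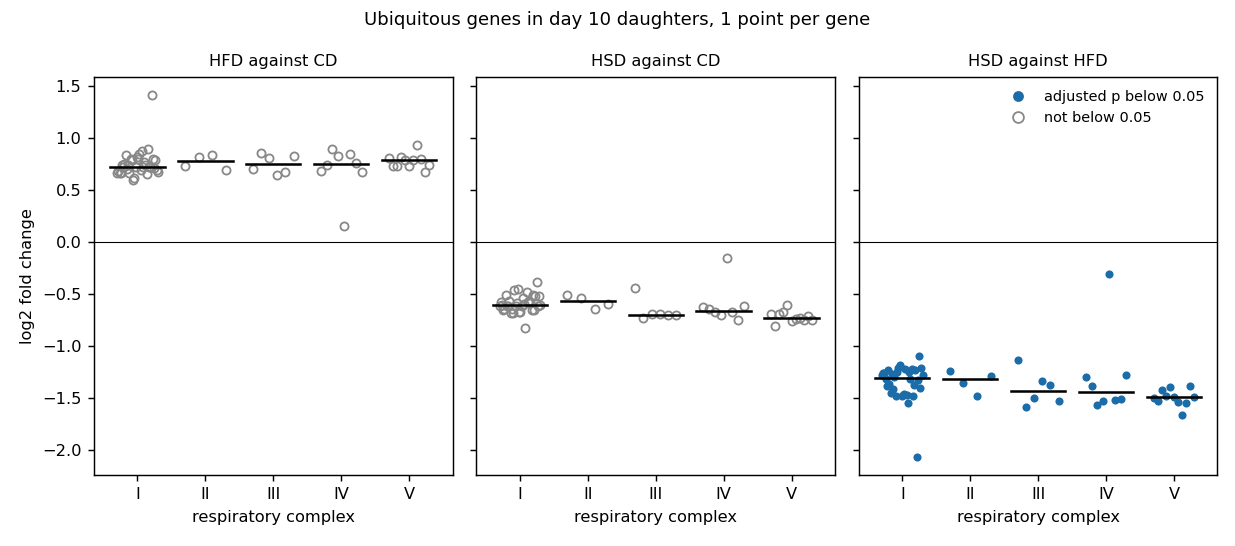
Log2 fold change of each ubiquitous gene in daughters at day 10 by complex in the 3 diet comparisons, with filled points for genes past the edgeR threshold and a bar at each complex median. All 63 points are filled for HSD against HFD, with ND-B8 lowest and COX7A nearest to 0, and none is filled against CD.

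Other genes moved beside these in the same libraries. Of the 13 transcripts encoded by the mitochondrial genome itself, 11 were lower in HSD than in HFD daughters, with a median of −1.39. The smallest p among them were those of mt:ND2 (−1.70 ± 0.19, edgeR adjusted p = 0.00106) and mt:ND5 (−1.45 ± 0.20), both subunits of complex I. Of the oxidative phosphorylation genes whose symbols fall outside the naming rule, 8 of 8 tested were lower, among them Cyt-c-p, the somatic cytochrome c (−2.0 ± 0.29), Cyt-c1 of complex III (−1.59 ± 0.22) and sun, the epsilon subunit of ATP synthase (−1.46 ± 0.20). Factors of mitochondrial biogenesis did not move in that direction. Of 10 such factors 6 were higher in HSD daughters (31.9% of all genes were higher) and 0 lower, with Ets97D, an ETS factor, at 1.03 ± 0.22, srl, the fly homologue of PGC-1, at 1.28 ± 0.31 and mtSSB, which binds mitochondrial DNA, at 0.68 ± 0.21 (edgeR adjusted p = 0.00303, 0.00453 and 0.013).

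Markers of tissues moved with the same groups. All 14 flight muscle markers, a list that also holds genes of other muscles such as Act79B, an actin of tubular muscles, were lower in HSD than in HFD daughters, with a median of −2.55. Their summed level was 4656 to 20267 CPM in HSD daughters, 21014 to 84571 CPM in HFD daughters and 14362 to 47824 CPM in CD daughters. The flight muscle actin Act88F was lower (−3.64 ± 0.75, edgeR adjusted p = 0.00269). Of 9 ovary markers 6 were higher (31.9% of all genes) and 1 lower (34.4%), with sums of 1992 to 3030 CPM in HSD daughters, 354 to 1707 CPM in HFD daughters and 1498 to 2348 CPM in CD daughters. The 3 yolk protein genes were all lower, and of 4 larval fat body markers tested 3 were lower. Summed over the 6 larval fat body markers listed, HFD daughters held 108, 770, 14.1, 10.3 and 26.7 CPM and HSD daughters 7.19 to 26.2 CPM. Only f21 and f22 thus lay well above the HSD range. The part of these tissues in the difference of the respiratory genes was not tested. In HFD library f22, lowest in ovary markers, the 10 biogenesis factors summed to 304 CPM, against 532 to 586 CPM in its group mates. In m8, with its ovary transcripts, they summed to 999 CPM, against 193 to 210 CPM in its group mates. The part of ovary in the difference of the biogenesis factors was not tested either.

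**Figure D3:**
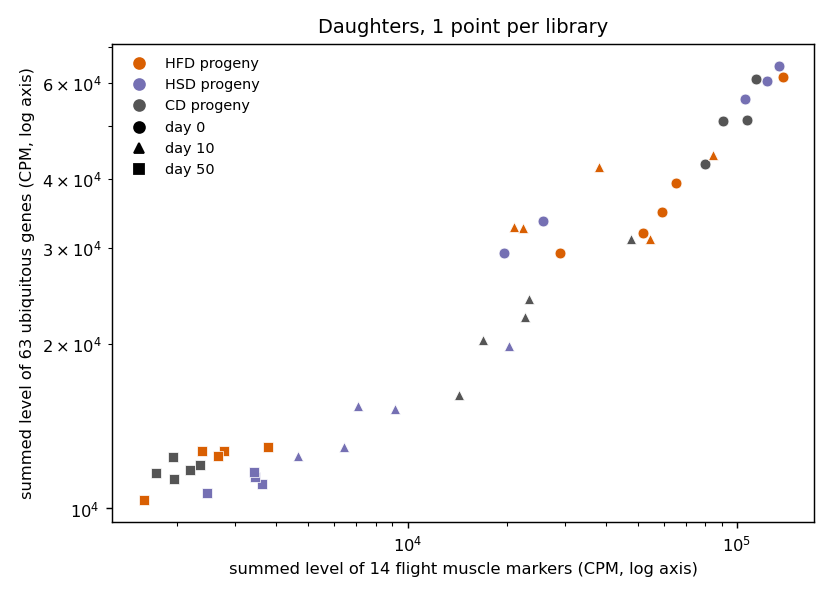
Summed level of the 63 ubiquitous genes against that of 14 flight muscle markers (both CPM on log axes), 1 point per library of daughters, with colour for maternal diet and shape for day. Across the days, libraries with more flight muscle transcript hold more ubiquitous transcript, from day 50 at the lower left (flight muscle sums of 1581 to 3772 CPM) to day 0 at the upper right. HFD libraries of day 10 lie above HSD libraries of day 10 on both axes. Within day 50 HSD has a higher mean flight muscle sum than CD (3235 and 2030 CPM) but a lower mean ubiquitous sum (11203 and 11836 CPM).

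The difference between HSD and HFD was larger in daughters than in sons of the same age. The interaction of sex with HSD against HFD at day 10 was below 0 past the threshold for 62 of 63 genes (18.6% of all genes passed in that direction), with a median of −1.23, and COX7A was the exception (edgeR adjusted p = 0.983). The same difference was also larger at day 10 than at the other ages in daughters. For day 10 minus day 0 this held for 62 of 63 genes (36.7% of all genes), with a median of −1.69 beside −0.24 for all genes. For day 10 minus day 50 it held for 61 of 63 (25.1%), with a median of −1.30 beside −0.06, and for 18 of 63 when libraries m8, f12, f21, f22, f26 and f27 were left out. For HFD against CD the interaction with sex passed for 0 of 63 genes (0.00779% of all genes), with 62 at an unadjusted p below 0.05 (18.3% of all genes), a median of 0.75 and 35 calls by DESeq2 (2.18% of all genes). It passed for 51 genes without CD daughter f19, for 21 without HSD daughter f29, for 11 without HFD daughter f21 and for 1 without HSD son m27. For HSD against CD the interaction passed for 0 genes by edgeR (0%) and 0 by DESeq2, with 38 at an unadjusted p below 0.05 (13.8% of all genes) and a median of −0.47, and for 17 without f29. All 14 flight muscle markers passed in the same direction as the ubiquitous genes in each of the 3 interactions of HSD against HFD.

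In mothers, whose own diet differed, the ubiquitous genes did not separate. Of 62 tested, 0 passed by edgeR or by DESeq2 in any of the 3 diet comparisons (0% of all genes in each), and 1 had an unadjusted p below 0.05 between HFD and CD mothers, with 0 in the other pairs. Their summed level was 11655 ± 501 CPM in HFD mothers, 11559 ± 1055 CPM in HSD mothers and 11607 ± 1064 CPM in CD mothers (SD, n = 5 each). Fold changes of HFD against CD ran only from −0.16 to 0.22. The mitochondrially encoded transcripts had a median of 0.28 in that comparison, with 8 of 13 at an unadjusted p below 0.05 (3.07% of all genes).

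At day 0 no ubiquitous gene passed in either sex, in edgeR or DESeq2, in any of the 3 diet comparisons (0% of all genes in each of the 6). In daughters an unadjusted p below 0.05 was found for 3 genes in HFD against CD (median −0.40), for 0 in HSD against CD (−0.13) and for 4 in HSD against HFD (0.27). In sons 0 genes did in each of the 3, with medians of −0.18, −0.23 and −0.04. Without m8, 0 genes passed and 0 had an unadjusted p below 0.05 in these 3, and the medians were 0.04, −0.24 and −0.27. Libraries within a group ranged widely at this age. HFD sons held 11414 to 41714 CPM of the 63 genes, HSD sons 19746 to 43598 CPM and CD sons 19956 to 42913 CPM. Library m8 was the lowest, and 62 of the 63 genes in it lay at or below the mean of its 4 group mates, by a median ratio of 0.296. COX7A, at a ratio of 1.02, was the gene above it.

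In sons at day 10 the ubiquitous genes lay close together. Of 63 genes, 0 passed by edgeR or DESeq2 in each diet comparison (0% of all genes in each), and an unadjusted p below 0.05 was found for 4 genes between HFD and CD sons, for 1 between HSD and CD sons and for 0 between HSD and HFD sons. Summed levels were 17344 ± 423 CPM in HFD sons, 17686 ± 591 CPM in HSD sons and 18145 ± 1383 CPM in CD sons (SD, n = 5 each), against the wide spread among daughters of that day. The 24 paralogs did not share this narrow spread, since m27 held 67.9 CPM of them, against 915 to 1391 CPM in the other 4 HSD sons. They had 0 calls by edgeR or DESeq2 in these 3 comparisons, and 0 had an unadjusted p below 0.05. Without m27 the calls were still 0 by edgeR. Of all genes, 0.00797% then passed for HFD against CD, 0.0558% for HSD against CD and 0.382% for HSD against HFD. An unadjusted p below 0.05 was found for 0, 3 and 3 paralogs in these comparisons. The share of all genes at that unadjusted threshold was not computed without m27. The direction of HSD sons turned with this library. The median log2 fold change was −0.11 with m27 and 0.20 without it for HSD against CD, and −0.12 and 0.19 for HSD against HFD.

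At day 50 the daughters of HFD mothers had 0 of 62 genes past the threshold against CD by edgeR or DESeq2 (6.24% of all genes passed), with 1 at an unadjusted p below 0.05 and a median of 0.01. For HSD against CD, 1 gene passed as lower (6.56% of all genes), ND-MLRQ, a small subunit, at −0.33 ± 0.09 (edgeR adjusted p = 0.0402), with 14 at an unadjusted p below 0.05 (25.4% of all genes). That call was lost on leaving out f31, f32, f34, f36, f37, f38, f39, f41, f42, f43 or f44, and 8 genes were lower without HFD library f40. For HSD against HFD 0 of 62 passed by edgeR or DESeq2 (0% of all genes), 6 had an unadjusted p below 0.05 (15.5%), and 5 passed without f40. Summed levels were 12252 ± 1076 CPM in HFD daughters (n = 5), 11203 ± 429 CPM in HSD daughters (n = 4) and 11836 ± 426 CPM in CD daughters (n = 5). In HSD against CD 3 mitochondrially encoded transcripts were lower, with mt:ND4 at −0.59 ± 0.13, and 3 of the 14 muscle markers were higher (2.92% of all genes), Act79B at 0.90 ± 0.18, sls, a titin-like protein, at 0.87 ± 0.21 and Mf at 0.71 ± 0.20.

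In sons at day 50, 0 of 63 ubiquitous genes passed by edgeR or DESeq2 in each diet comparison (0% of all genes in each), and an unadjusted p below 0.05 was found for 0 genes between HFD and CD sons and for 1 in each of the other pairs. Summed levels were 12992 ± 878 CPM in HFD sons (n = 3), 18497 ± 8426 CPM in HSD sons (n = 6) and 14512 ± 491 CPM in CD sons (n = 5). Libraries m44 and m45 set the spread of HSD sons. In m44, 62 of 63 genes lay above the mean of m40 to m43, by a median ratio of 1.96, while its flight muscle sum of 9021 CPM lay within their 8457 to 10185 CPM. In m45, 61 of the 63 did, by a median ratio of 2.34, and its flight muscle sum was 69693 CPM. That sum lay within the 41827 to 90774 CPM of CD sons at day 0. So did its 33176 CPM of ubiquitous genes (19956 to 42913 CPM in those sons) and its 4189 CPM of testis markers (3393 to 4524 CPM). Why m45 resembled day 0 sons in these sums was not tested.

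The ubiquitous genes fell with age in CD daughters. From day 0 to day 10, 63 of 63 ubiquitous genes fell (28.5% of all genes fell), with a median log2 fold change of −1.32 beside 0.00 for all genes. From day 10 to day 50, 62 of 63 fell again (24.8% of all genes), with a median of −1.17, and COX7A was the exception at −0.17 (edgeR adjusted p = 0.111). Summed levels averaged 51567 ± 7568 CPM at day 0 (n = 4), 22811 ± 5525 CPM at day 10 and 11836 ± 426 CPM at day 50 (SD, n = 5 each). ATPsynbeta stood at 9445, 5765, 7688 and 7658 CPM at day 0, at 2295 to 4874 CPM at day 10 and at 1749, 1591, 1483, 1624 and 1554 CPM at day 50. The 3 ages did not overlap, and the log2 fold changes were −1.27 ± 0.19 (edgeR adjusted p = 4.17e-06) and −1.37 ± 0.18 (8.71e-07).

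All complexes took part in the fall to day 10. The genes with the largest fall of their complex were UQCR-6.4 of complex III (−1.91 ± 0.17), COX7C of complex IV (−1.68 ± 0.15), ATPsynG of complex V (−1.56 ± 0.16), ND-MWFE of complex I (−1.53 ± 0.14) and the membrane anchor SdhD (−1.26 ± 0.14). From day 10 to day 50 ND-B8 fell furthest, at −6.62 ± 0.53 (edgeR adjusted p = 2.52e-10). It stood at 17.3, 7.94, 14.4 and 14.4 CPM at day 0, at 2.75 to 7.70 CPM at day 10 and at 0, 0, 0.087, 0.21 and 0 CPM at day 50, so its size rests on libraries with next to no counts. Other genes that fell in that interval were UQCR-Q (−1.54 ± 0.14), SdhC (−1.38 ± 0.16), ATPsynB, of the peripheral stalk of complex V (−1.37 ± 0.15), and COX6B (−1.25 ± 0.14).

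In the same libraries, 13 of 13 mitochondrially encoded transcripts fell to day 10 (median −1.71) and 11 fell to day 50. All 14 flight muscle markers fell in both intervals, with medians of −2.17 and −4.29, among them the tubular muscle actin Act79B to day 50 (−5.73 ± 0.26). Of the 10 biogenesis factors, 4 rose (29.5% of all genes rose) and 1 fell to day 10, with PolG1, the catalytic subunit of the mitochondrial DNA polymerase, at 1.26 ± 0.19, and 2 fell to day 50. Summed ovary markers averaged 863, 2089 and 2889 CPM in these daughters at days 0, 10 and 50, and the 3 yolk protein genes 3615, 11532 and 24882 CPM. The part of muscle or of ovary in these changes was not tested.

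CD sons followed another course. From day 0 to day 10, 50 of 63 ubiquitous genes fell (14.5% of all genes fell) and 1 rose (14.6% of all genes rose), with a median of −0.75. Complexes differed in this interval. All 11 genes of complex V fell (median −1.20), all 6 of complex III fell (−0.84), 7 of 8 of complex IV fell (−0.85), 25 of 34 of complex I fell (−0.61) and 1 of 4 of complex II fell (−0.02). ATPsynC stood at 6785, 5689, 3152, 6827 and 5443 CPM at day 0 and at 1390, 1351, 1353, 1371 and 1304 CPM at day 10, a log2 fold change of −2.08 ± 0.16 (edgeR adjusted p = 2.2e-10). SdhA stood at 728, 757, 386, 822 and 639 CPM at day 0 and at 705, 645, 699, 865 and 679.8 CPM at day 10 (0.08 ± 0.15, edgeR adjusted p = 0.86). The ages did not overlap in ATPsynC and overlapped in SdhA. ND-51 was the gene that rose, with 311 to 636 CPM at day 0 and 684 to 915 CPM at day 10 (0.49 ± 0.15, edgeR adjusted p = 0.0138). Others that fell were ND-ACP, the acyl carrier protein of mitochondria (−1.58 ± 0.15), UQCR-11 of complex III (−1.18 ± 0.16), COX6B (−0.98 ± 0.14) and SdhD (−0.49 ± 0.13).

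None of the 13 mitochondrially encoded transcripts passed in CD sons from day 0 to day 10 by edgeR, with 3 at an unadjusted p below 0.05 and a median of 0.17, while 12 of 14 flight muscle markers fell (median −2.68, Act88F −6.90 ± 0.54). Library m3, with its ovary transcripts, was the lowest at day 0 in ATPsynC and SdhA.

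From day 10 to day 50, 50 of 63 ubiquitous genes fell in CD sons (34.6% of all genes fell), with a median of −0.52, and 0 rose. Here complex II had the largest median, −0.65 with 4 of 4 genes, beside −0.45, −0.61, −0.57 and −0.45 for complexes I, III, IV and V. SdhA fell to 352, 366, 388, 399.9 and 398 CPM at day 50 (−1.09 ± 0.16, edgeR adjusted p = 1.52e-06), and no library reached the day 10 range. ATPsynC stood at 1015 to 1307 CPM and did not pass (−0.35 ± 0.16, edgeR adjusted p = 0.0542). Others that fell were ND-B8 (−2.79 ± 0.31), UQCR-Q (−1.15 ± 0.14), COX5A (−0.77 ± 0.15) and ATPsynB (−0.68 ± 0.15). Of the 13 mitochondrially encoded transcripts 8 fell. Of the 14 flight muscle markers 5 fell, near the share of all genes (34.6%). Of the 10 biogenesis factors 3 rose, also near the share of all genes (27.3% rose), with mtTFB2, a mitochondrial transcription factor, at 0.57 ± 0.12.

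Progeny of HFD and HSD mothers were compared across age in the same way, and both intervals of a line share its day 10 libraries. In HFD daughters 0 of 63 genes passed from day 0 to day 10 by edgeR or DESeq2 (0% of all genes), with 2 at an unadjusted p below 0.05 and a median of −0.17, and 62 of 63 fell from day 10 to day 50 (26.2% of all genes), with a median of −1.53. In HSD daughters 62 of 63 fell to day 10 (42.2% of all genes), with a median of −1.68 beside −0.36 for all genes (−1.81 and −0.48 with median-of-ratios size factors), and 1 fell to day 50 (0.254%), ND-B8, with a median of −0.42. In HFD sons 25 of 63 fell to day 10 (7.25%), 50 without library m8 and 16 on leaving out m9, m10, m22 or m23 alone. To day 50, 0 of 63 passed (1.98%) by edgeR and 2 by DESeq2, with 8 at an unadjusted p below 0.05 (11.5%), and 7 passed without m8. In HSD sons 8 of 63 fell to day 10 (1.23%), with a median of −0.62 beside 0.00 for all genes (−0.70 and −0.11 with median-of-ratios size factors). Leaving out m13 left 0, m11 left 1, m15 or m27 left 2, m28 left 4, m29 left 5, and leaving out m45 gave 22. To day 50, 0 passed (0.0077%) by edgeR and 1 by DESeq2, with 2 at an unadjusted p below 0.05, and 4 passed without m45 and 2 without m27. ATPsynC fell to day 10 in HFD sons (−1.92 ± 0.24) and in HSD sons (−1.81 ± 0.39).

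Sons and daughters of CD mothers were compared at each day, and these comparisons moved with the scaling. The median over all genes, sons against daughters, was −0.16 at day 0, 0.17 at day 10 and 0.69 at day 50 with TMM, and 0.07, 0.35 and 0.77 with median-of-ratios size factors. The ubiquitous genes had medians of −0.53, 0.04 and 0.59 at days 0, 10 and 50 with TMM and of −0.30, 0.23 and 0.67 with median-of-ratios size factors. With either scaling they lay below the median of all genes at each day.

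At day 0, 55 of 63 genes were lower in sons than in daughters (34.4% of all genes lower, 27.3% higher), and 0 were higher. With median-of-ratios size factors 17 were lower, DESeq2 called 19 (53.3% of all genes in either direction), and leaving out the low-count filter gave 18. Without CD son m3, 12 were lower and 1 higher, without f16 21 were lower, and on leaving out f18 or a single library of f31 to f35 17 were lower. Without m1, m3 and m4 together, the CD sons with yolk protein transcripts, the count was 53. Among the lower genes were COX7C (−0.97 ± 0.15, edgeR adjusted p = 4.37e-06), UQCR-6.4 (−0.96 ± 0.16), ND-AGGG of complex I (−0.86 ± 0.17), ATPsynG (−0.77 ± 0.16) and SdhC (−0.74 ± 0.16). All 13 mitochondrially encoded transcripts and 7 of 14 flight muscle markers were lower as well.

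At day 10 the list split by complex. In sons 15 genes were higher (45.2% of all genes higher) and 10 were lower (38.1% lower) than in daughters, and with median-of-ratios size factors 27 were higher and 5 lower. Complex II had 4 of 4 genes higher (median 0.57), complex I had 10 higher and 3 lower (0.17), complex III had 1 higher (−0.03), complex IV had none (−0.12) and complex V had 7 of 11 lower and 0 higher (−0.37). With median-of-ratios size factors these medians were 0.76 for II, 0.36 for I, 0.16 for III, 0.07 for IV and −0.18 for V, so those of III and IV changed sign while II stayed highest and V lowest. Named for complex V, ATPsynC stood at 1304 to 1390 CPM in sons and at 2475 to 4880 CPM in daughters (−1.26 ± 0.16, edgeR adjusted p = 5.81e-08). The ATPsynbeta libraries held 1466 to 1817 CPM in sons and 2295 to 4874 CPM in daughters (−1.01 ± 0.18), and ATPsyngamma (−0.92 ± 0.16) and ATPsyndelta (−0.85 ± 0.16), of the rotating central stalk, were lower too. In the opposite direction, ND-51 stood at 684 to 915 CPM in sons and at 297 to 592 CPM in daughters (0.91 ± 0.15, edgeR adjusted p = 5.1e-06), without overlap. SdhA and SdhB (both 0.75 ± 0.15), UQCR-Q (0.49 ± 0.14) and ND-B8 (2.21 ± 0.30) were higher as well. ND-75, of the same arm of complex I as ND-51, did not pass (0.18, edgeR adjusted p = 0.289).

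Other genes of mitochondria also differed by sex at day 10. The ATP synthase genes blw, the alpha subunit (−1.07 ± 0.17), and sun (−1.05 ± 0.18) were lower in sons. Of the mitochondrially encoded transcripts 9 were higher. Of the biogenesis factors 9 were lower, among them TFAM, which packages mitochondrial DNA (−1.23 ± 0.08), and srl (−4.55 ± 0.35). Of the flight muscle markers 11 were lower and 3 higher in sons. Ovary markers summed to 56.7 to 66.9 CPM in these sons and to 1498 to 2348 CPM in these daughters. The part of ovary in the sex difference of the biogenesis factors was not tested.

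At day 50, 51 of 63 genes were higher in sons (53.6% of all genes higher) and 1 was lower (34.1% lower). Complex medians were 0.77, 1.12, 0.68, 0.53 and 0.23 for I to V, with 29, 4, 5, 8 and 5 genes higher. Among the higher genes were SdhB (1.58 ± 0.16, edgeR adjusted p = 7.14e-10), ND-51 (1.45 ± 0.15), ND-49 (1.27 ± 0.17), UQCR-14 (1.06 ± 0.16), COX7C (0.80 ± 0.15) and ATPsynE (0.56 ± 0.15). The ND-51 libraries held 558 to 626 CPM in sons and 239 to 254 CPM in daughters. ATPsynC was the gene that was lower (−0.42 ± 0.16, edgeR adjusted p = 0.0146), a call absent with median-of-ratios size factors, and ATPsynbeta did not pass (−0.06 ± 0.18, edgeR adjusted p = 0.77). All 13 mitochondrially encoded transcripts and all 14 flight muscle markers were higher in sons at this age, and 8 biogenesis factors were lower. Ovary markers summed to 92.6 to 186 CPM in these sons and to 2647 to 3049 CPM in these daughters, and their part was again not tested.

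**Figure D4:**
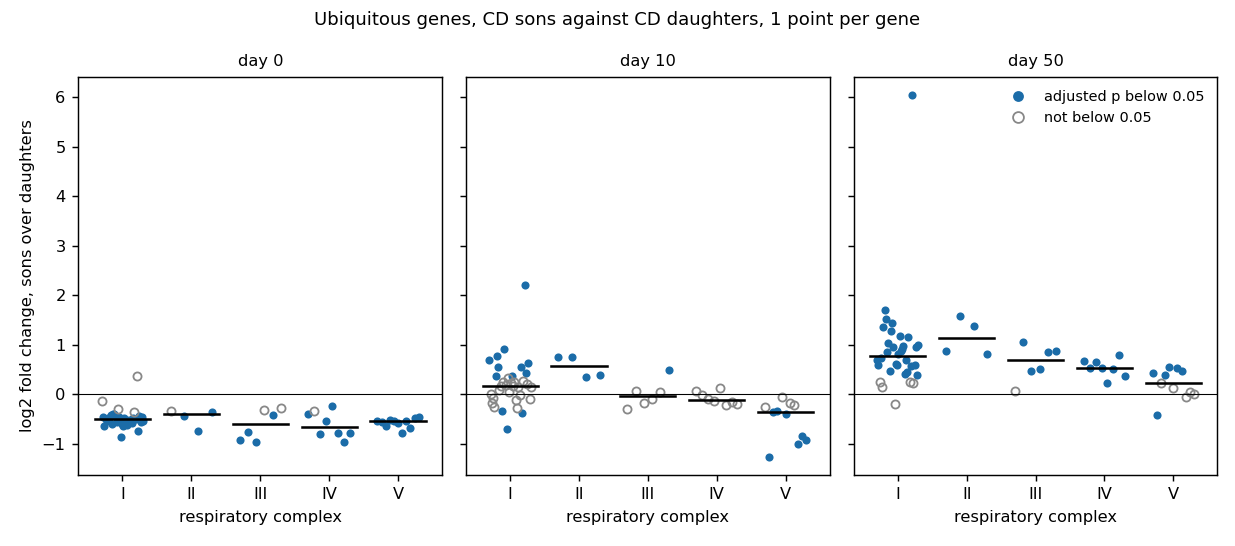
Log2 fold change of each ubiquitous gene in CD sons over CD daughters by complex at day 0, 10 and 50, with filled points past the edgeR threshold and a bar at each complex median. At day 10 the complex II median is 0.57 and the complex V median −0.37, and complex II stays above complex V at day 50 (1.12 and 0.23).

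The paralogs were first compared by sex in their levels only. All but COX7AL2 were near 0 in CD daughters and passed the low-count filter only through sons, so a count of calls tests nothing. COX7AL2 was the exception and is described apart. Without it, the summed level of the other 23 was 814 to 1182 CPM in CD sons at day 0, 854 to 1132 CPM at day 10 and 25.1 to 186 CPM at day 50, and 0.95 to 8.1 CPM in all libraries of daughters and mothers except f12, which held 384 CPM. Apart from f12 these 23 genes were thus near 0 in females, and no fold change between sexes is given for them.

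In CD sons the paralogs stood at similar levels from day 0 to day 10, when COX7AL2 was the 1 of 24 that fell (14.5% of all genes fell), and fell after it. From day 10 to day 50, 23 of 24 were lower (34.6% of all genes), with a median of −3.48, and the same number passed in DESeq2 and on leaving out any single library. COX4L (FBgn0033020), a duplicate of a cytochrome c oxidase subunit, stood at 119, 159, 126, 125 and 141 CPM at day 0, at 171, 147, 125, 111 and 119 CPM at day 10 and at 2.42, 26.2, 24.9, 12.5 and 2.17 CPM at day 50. The early ages overlapped, and every library of day 50 lay far below them (−3.49 ± 0.46, edgeR adjusted p = 5.03e-07). SdhBL, a duplicate of the iron-sulphur subunit of complex II, stood at 136, 130, 136, 113 and 141 CPM at day 10 and at 3.63, 29.7, 32, 16 and 4.53 CPM at day 50 (−3.12 ± 0.41). In both genes the libraries m31 and m35 were the lowest of day 50.

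COX6AL2 stood at 79.8 to 96.5 CPM at day 10 and at 0.242, 15, 13.3, 4.59 and 1.99 CPM at day 50, the largest fall of the set (−3.84 ± 0.62). COX7AL (−3.77 ± 0.40) and ATPsynGL (−3.47 ± 0.36) fell as well. The copies of complex II and complex I subunits had the same course. SdhAL averaged 55.2 ± 10.9 CPM at day 0, 54.1 ± 5.94 CPM at day 10 and 4.44 ± 4.56 CPM at day 50, SdhCL averaged 47.4 ± 7.34, 48.3 ± 8.10 and 4.44 ± 4.46 CPM, and ND-49L averaged 39.9 ± 9.05, 46.8 ± 7.56 and 5.95 ± 4.85 CPM (SD, n = 5 each). Of complex III, UQCR-14L was the most abundant copy, with 22.4 ± 2.49, 21.3 ± 4.32 and 2.17 ± 1.87 CPM. Among the other paralogs, apart from COX7AL2 and ATPsynepsilonL, group means at day 10 ran from 9.56 CPM for UQCR-6.4L to 55.1 CPM for COX7AL.

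The ATP synthase copies held 2 exceptions. The beta subunit copy ATPsynbetaL had a smaller fall (−1.56 ± 0.24), with 15.2 to 22.2 CPM at day 10 and 4.98 to 11.8 CPM at day 50. ATPsynepsilonL was the 1 paralog that did not pass (−0.27 ± 0.49, edgeR adjusted p = 0.647), with 4.07 to 4.98 CPM at day 10 and 2.12 to 6.55 CPM at day 50. All 17 testis markers fell in the same interval, with a median of −2.92, and their sum was 3475 to 4495 CPM at day 10 and 186 to 762 CPM at day 50. Cyt-c-d, the cytochrome c of the testis, fell (−3.84 ± 0.48). The part of testis tissue in the falls of the paralogs was not tested.

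Set against the ubiquitous gene of the same name, per kilobase, paralogs made up a varying share in CD sons. The ratio of COX7AL to COX7A was 0.484 at day 0, 0.423 at day 10 and 0.0320 at day 50. That of COX4L to COX4 was 0.252, 0.355 and 0.0477, and that of SdhBL to SdhB was 0.264, 0.216 and 0.0325. ATPsynbetaL stood at 0.0044, 0.0121 and 0.0054 of ATPsynbeta. The other ATP synthase copies with a namesake in the tables were higher, ATPsynCF6L at 0.136 and ATPsynGL at 0.123 at day 10.

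Maternal diet was compared for the paralogs of sons at each day. At day 0, 0 of 24 passed by edgeR or DESeq2 in the 3 comparisons (0% of all genes), and 0 had an unadjusted p below 0.05. These values include m8, which held almost no paralog transcript. Without it, 1 paralog passed for HSD against CD (4.29% of all genes), SdhCL, a duplicate of a membrane anchor of complex II, at 0.47 ± 0.12 (edgeR adjusted p = 0.0492), with 14 at an unadjusted p below 0.05 and a median of 0.28. For HFD against CD the median was −0.18 with m8, when 24 of 24 were lower in direction, and 0.14 without it, when 24 of 24 were higher, with 0 calls (0.0237% of all genes) and 1 at an unadjusted p below 0.05. For HSD against HFD it was 0.46 with m8 and 0.14 without it, with 0 calls (0%) and 1 at an unadjusted p below 0.05. The share of all genes at an unadjusted p below 0.05 was not computed without m8. At day 50 the groups spread apart in level, but no paralog passed by edgeR. HFD sons held 606 to 684 CPM of the 23 paralogs and CD sons held 25.1 to 186 CPM. HSD sons held 76.4 to 540 CPM apart from m45, which held 1002 CPM. For HFD against CD 0 of 24 passed by edgeR (0% of all genes), 22 had an unadjusted p below 0.05 (28.7% of all genes), the smallest edgeR adjusted p was 0.0976, and DESeq2 called 18 (19.2% of all genes). The median log2 fold change was 2.87 (−0.17 to 3.15), 23 were higher in direction, and for 21 every HFD library lay above every CD library, against 21.2% of all genes. COX4L stood at 88, 103 and 102 CPM in HFD sons, at 78, 23.2, 9.86, 45.1, 12.1 and 152 CPM in HSD sons and at 2.42 to 26.2 CPM in CD sons. SdhBL stood at 86.1, 76.6 and 76.7 CPM in HFD sons and at 76.6, 26.5, 14.6, 45.4, 7.38 and 112 CPM in HSD sons. The 3 HFD libraries were alike and above all CD libraries in both genes. HSD sons spread upward from the CD range, and only m45 lay above the HFD range.

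Without HSD library m45, which holds much flight muscle and testis transcript, 15 paralogs passed for HFD against CD, and in a single fit of all 18 progeny groups 13 did. For HSD against CD 0 of 24 passed by edgeR (0% of all genes) and 1 by DESeq2 (0.229%), with 17 at an unadjusted p below 0.05 (16.2%), a median of 2.10 and edgeR adjusted p of 0.302 or more. For HSD against HFD 0 passed by edgeR (0%) or DESeq2, with 1 at an unadjusted p below 0.05 and a median of −0.80. From day 10 to day 50 0 of 24 passed within HFD sons by edgeR or DESeq2 (1.98% of all genes, median −0.56), with 0 at an unadjusted p below 0.05, and 4 passed without m8. Within HSD sons 0 of 24 passed by either tool (0.0077%, median −1.26), 0 had an unadjusted p below 0.05, and 1 passed without m45. Testis markers had the same order, with sums of 2206, 2548 and 2400 CPM in HFD sons, 2063, 711, 394, 1245, 447 and 4189 CPM in HSD sons and 186 to 762 CPM in CD sons. Their part in the diet difference was not tested. Library m27, low in testis markers at day 10, held 4.87 CPM of COX4L, and m8 held 0.172 CPM.

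COX7AL2 (FBgn0085201, 2L, 2192525 to 2197912, minus strand) went against the class its name put it in. In CD daughters it stood at 383, 372, 399 and 430 CPM at day 0, at 51.5, 70.5, 82.6, 133 and 87.8 CPM at day 10 and at 3.01 to 5.57 CPM at day 50. In CD sons it stood at 219, 178, 74.2, 272 and 138 CPM at day 0 and at 21.6 to 38.1 CPM at day 50. Sons were below daughters at day 0 (−1.17 ± 0.26, edgeR adjusted p = 0.000305), did not differ past the threshold at day 10 (−0.07 ± 0.24, adjusted p = 0.805) and were above them at day 50 (3.05 ± 0.28). It fell to day 10 and again to day 50 in CD daughters (−2.34 ± 0.26 and −4.71 ± 0.29) and in CD sons (−1.25 ± 0.25 and −1.59 ± 0.25).

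COX7AL2 also differed by maternal diet in daughters at day 10. It stood at 21.7, 21.8, 46.3, 71.3 and 34.8 CPM in HSD daughters, at 155, 300, 117, 122 and 181 CPM in HFD daughters, and its CD libraries overlapped both ranges. The HSD and HFD libraries did not overlap (−2.31 ± 0.40, edgeR adjusted p = 0.00151). The interaction was −2.16 ± 0.43 with sex, −2.39 ± 0.54 for day 10 minus day 0 and −2.20 ± 0.57 for day 10 minus day 50, each past the threshold. The last did not pass when m8, f12, f21, f22, f26 and f27 were left out. In mothers of all diets COX7AL2 stood at 3.91 to 14.9 CPM. COX7A, its namesake, kept between 120 and 176 CPM in the means of the 18 progeny groups, and its highest over lowest group mean of 1.46 was the smallest of the 63 ubiquitous genes, whose median was 4.62. Per kilobase of the longest transcript, COX7AL2 stood at 1.92 ± 0.32 of COX7A in CD daughters at day 0, at 0.44 ± 0.14 at day 10 and at 0.019 ± 0.005 at day 50 (SD). At day 10 the ratio was 0.21 ± 0.10 in HSD daughters and 0.84 ± 0.19 in HFD daughters. These ratios depend on the length used, since the longest transcript of COX7AL2 has 866 bases and its transcripts average 440.5 bases. With mean transcript lengths they were 3.61, 0.828 and 0.0361 in CD daughters at days 0, 10 and 50, and at day 10 0.398 in HSD daughters and 1.58 in HFD daughters, so whether COX7AL2 stood below or above COX7A in HFD daughters turned on it.

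**Figure D5:**
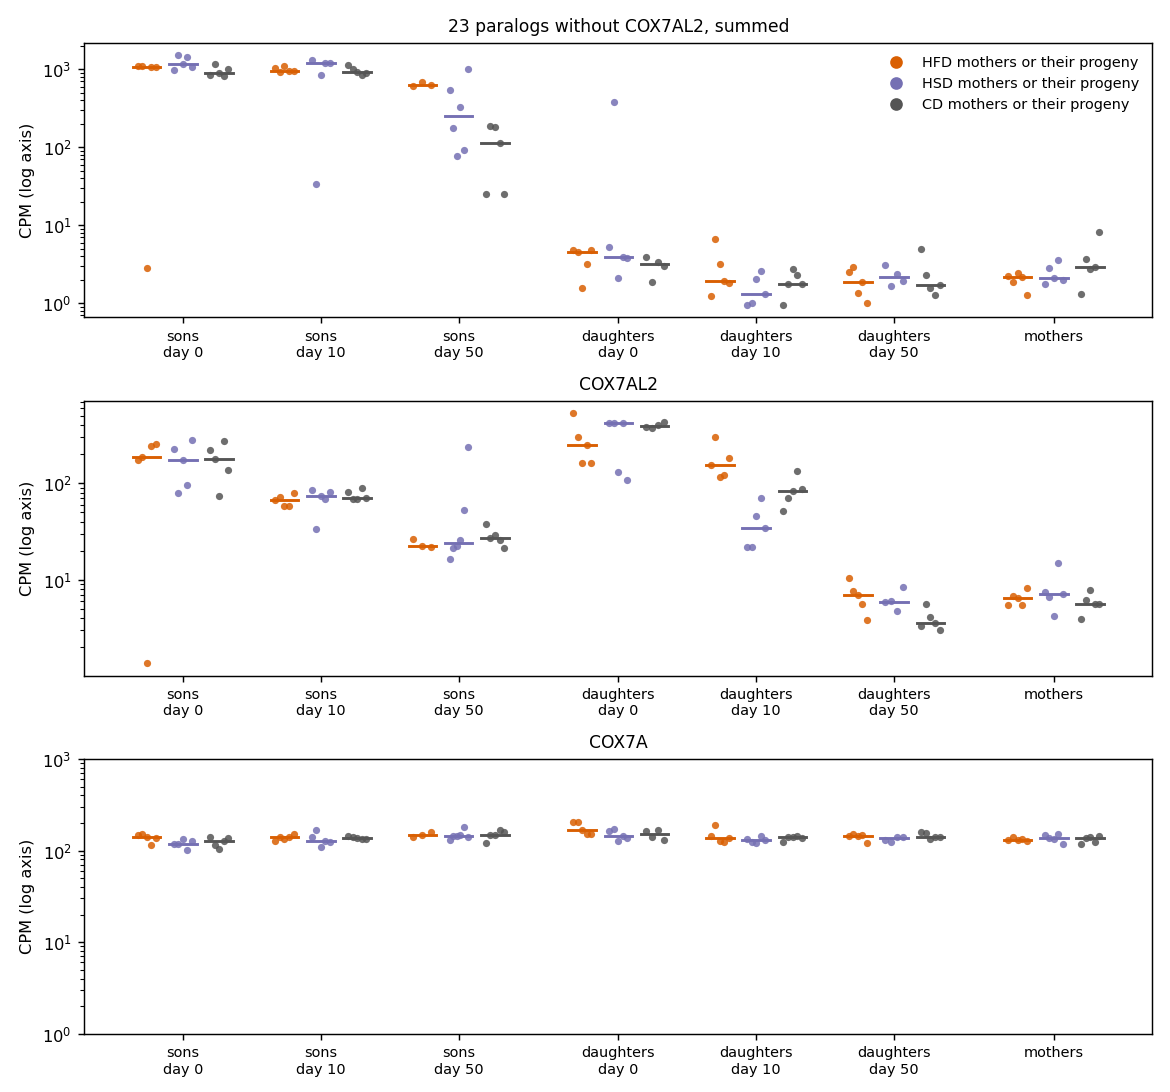
Levels by library on log axes (CPM) of 23 paralogs summed, of COX7AL2 and of COX7A, for sons, daughters and mothers by day, with colour for maternal diet and a line at each group's median. The 23 paralogs are high in sons at day 0 and 10 except in m8 and m27, and near 0 in females apart from f12, COX7AL2 falls with age in both sexes, and COX7A stays between 120 and 176 CPM in its group means.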

How the data were processed

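Total RNA of whole flies was analysed by RNA-seq in 102 libraries, whose groups come from the labels. The authors deposited whole-number counts for 14312 FlyBase identifiers, in separate tables for both generations. The tools were kallisto, DESeq, DESeq2 1.36.0 and R 4.2.0 with build BDGP6, per the submitters' processing notes. Since kallisto assigns reads among similar transcripts by likelihood, the counts of close paralogs carry some uncertainty. Symbols and coordinates came from annotation BDGP6.54, where 14302 identifiers were found and 11 had no symbol. The labels state neither strandedness nor the number of flies per library.

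Each fit used R 4.3.3 and edgeR 4.0.16 (limma 3.58.1) with filterByExpr (minimum count 10, minimum total 15), TMM and the quasi-likelihood F test, adjusted over all genes of the fit. Diet fits held 3 groups, of mothers or of 1 sex and day of progeny, and fits for age and sex held the 6 progeny groups of a diet. Sex and day dependence were interaction terms. Alternatives were DESeq2 1.42.0, no low-count filter, median-of-ratios size factors, all 18 progeny groups in a single fit and leaving out libraries. On simulated counts for HSD against HFD in day 10 daughters (10277 genes), 40% of 100 genes changed 2-fold and 85% of 100 changed 4-fold were called. No 2 replicates were duplicates, since chi-square over its degrees of freedom was at least 5.92 in all 200 pairs within groups.

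Named genes were fixed core subunits, the smallest p and largest change of each complex in a comparison with calls, any member against the majority, paralogs reaching a mean of 1 CPM, and up to 3 genes of each other list. COX7A in day 10 daughters, UQCR-C2 in m44 and the tissue markers named were singled out after their values were seen. The members and lists were chosen with earlier results of these data known.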

Additional observations from a re-analysis of the deposited data

Results flagged for a closer look

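Of 60 checks of a group for a single distant library, 6 found one. The cutoff gives about 1 in 20 for independent, normally distributed values. The checks were not independent, since they used the same libraries and COX7AL2 is part of the paralog sum, so the count was not tested against chance. In HFD sons at day 0, library m8 held 11414 CPM of the ubiquitous genes, against 33037 to 41714 CPM in the others, and 4.22 CPM of the paralogs, against 1293 to 1326 CPM. In HFD sons at day 10, m23 held 16613 CPM of the ubiquitous genes, against 17374 to 17678 CPM. In HFD daughters at day 50, f40 held 10348 CPM, against 12494 to 12943 CPM. In HSD mothers, s14 held 18.5 CPM of the paralogs, against 6.33 to 9.44 CPM. In HSD sons at day 50, m45 held 238 CPM of COX7AL2, against 16.3 to 52.8 CPM. The difference of HSD against HFD itself differed between daughters and sons at day 10 for 62 ubiquitous genes, between day 10 and day 0 in daughters for 62, and between day 10 and day 50 in daughters for 61, by interaction terms in edgeR.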

How the results depend on the processing

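The 63 lower genes of HSD against HFD in day 10 daughters stayed between 61 and 63 under the alternatives run. Several counts near the threshold did not hold still. With DESeq2 the ubiquitous genes called were 60 for HFD against CD and 10 for HSD against CD in day 10 daughters, 4 for HSD against CD in day 50 daughters, 2 for day 50 against day 10 in HFD sons, 17 for day 10 against day 0 and 1 for day 50 against day 10 in HSD sons, 19 for CD sons against daughters at day 0 and 35 for the sex interaction of HFD against CD. With median-of-ratios size factors they were 0 for HSD against CD in day 50 daughters, 1 for day 50 against day 10 in HSD sons and 17 for the sex difference at day 0, and with no low-count filter the last was 18. In a single fit of all 18 progeny groups they were 4 for HFD against CD in day 10 daughters and 0 for HSD against CD in day 50 daughters. Without m8, f12, f21, f22, f26 and f27 they were 7 for HFD against CD in day 10 daughters, 12 for day 10 against day 0 in HFD daughters, 52 and 13 for both age intervals of HFD sons, 6 for the sex interaction of HFD against CD and 18 for day 10 minus day 50. Without m1, m3 and m4, an alternative chosen after seeing the data, the sex difference at day 0 had 53.

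Leaving out each library in turn gave 0 to 60 for HFD against CD and 0 to 54 for HSD against CD in day 10 daughters, and 0 to 8 for HSD against CD and 0 to 5 for HSD against HFD in day 50 daughters. In the first of these day 50 comparisons the 1 gene called without f36 or f42 was higher, not lower. It gave 16 to 50 and 0 to 7 for both age intervals of HFD sons, 0 to 22 and 0 to 4 for those of HSD sons, 13 to 60 for the sex difference at day 0, and 0 to 51 and 0 to 17 for the sex interactions of HFD and HSD against CD. The cause was not tested. For the paralogs, day 0 sons of HSD against CD had 1 call without the 6 libraries and 0 to 1 on leaving out a library, day 50 sons of HFD against CD had 18 calls with DESeq2, 13 in the single fit and 0 to 15 on leaving out a library, and HSD against CD had 1 with DESeq2. From day 10 to day 50 HFD sons had 9 without the 6 libraries and 0 to 4 on leaving out a single library, and HSD sons had 0 to 1. Among named genes, 17722 of 18069 alternatives gave the same call. In HSD daughters from day 0 to day 10, 4 paralogs turned to higher, ND-51L2 (log2 fold change 1.21 without the 6 libraries, −5.83 to 0.49 on leaving out 1), ND-49L (1.76, and −7.51 to 1.25), COX6AL (0.070 without the 6) and COX6CL (−8.16 to 1.23 on leaving out 1), the high end coming without f12. Apart from f12, HSD daughters held 2.1 to 5.3 CPM of the 23 paralogs summed at day 0 and 0.95 to 2.6 CPM at day 10. These 4 fold changes thus rest on f12 or on next to no counts and say nothing about age. Group means of summed levels moved by more than 1 SD in 12 of 42 cases with median-of-ratios size factors, and paralog to parent ratios in 42 of 192 with mean transcript length, 20 of these being among the 21 ratios of COX7AL2. No paired analysis was possible because no replicate number is shared between the groups compared. The precision of low genes such as ND-B8 is limited by depth, and counting error is only part of it.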

Other observations

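Library m44, an HSD son at day 50, held 24274 CPM of the ubiquitous genes with 447 CPM of testis markers, 9021 CPM of flight muscle markers and 24704 CPM of mitochondrially encoded transcripts. Its group mates m40 to m43 held 17239 to 21843 CPM of the mitochondrially encoded transcripts. Its highest ratio to their mean was 2.65, in UQCR-C2, a core subunit of complex III, and its lowest was 0.747, in ND-B8. Library m45 of the same group held 29709 CPM of mitochondrially encoded transcripts, and its highest ratio was 5.47, in ND-B8.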
